A study of Canis lupus familiaris with 15 samples.

Results

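The type I interferon genes described here are IFNA5, IFNA7, IFNB1 and IFNK, which are 4 of the 160 probes of a custom NanoString panel counted in dog skin. They were chosen by matching the RefSeq accessions of the panel rows, without version numbers, to the dog genes of these names. Every interferon alpha, beta and kappa gene found on the panel in this way is included, and 88 of the 160 panel probes matched no symbol and were not examined for further interferons. The panel was counted in 15 archival, paraffin-embedded skin biopsies from dogs of mixed breeds. The largest group was 7 dogs with discoid lupus erythematosus (DLE), aged 1 to 13 years. The other lesions came from 1 dog of 7 years with chronic cutaneous lupus in which systemic lupus was suspected (CCLE), 1 dog of 6 years with mucocutaneous lupus (MLE) and 1 dog of 9 years with pyoderma, a bacterial skin infection, which earlier carried the label DICLE. The controls were 5 healthy samples from leg margins, re-used from an earlier series, with no age given. The labels do not state that these 5 are from separate dogs, and each is called a dog here. The labels name no treatment, and they give no body site for the lesions.

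Type I interferons are secreted antiviral cytokines that all signal through the receptor formed by IFNAR1 and IFNAR2 and switch on interferon-stimulated genes such as MX1 and CXCL10. In human skin, interferon kappa is made by keratinocytes, interferon beta by many cell types after nucleic acid sensing, and interferon alpha mainly by plasmacytoid dendritic cells, and type I interferon signalling is a known feature of human cutaneous lupus. In the dog annotation UU_Cfam_GSD_1.0 the 4 genes lie on the same chromosome in the order IFNB1, IFNA5, IFNA7 and IFNK. There are 2 annotated genes between IFNB1 and IFNA5, 17 between IFNA5 and IFNA7, and 57 between IFNA7 and IFNK. The IFNA5 and IFNA7 probes target members of a family of near-identical genes, so a count cannot be assigned to a single alpha gene with certainty.

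All 4 interferon probes lay at or near background in lesional skin. Background was set for each dog from its 8 lowest spike-in control rows, as their mean and 2 SD above it. This limit ranged from 13.6 to 30.0 counts. Only 2 of the 14 control rows were low in all dogs, so the limits of different dogs rest on partly different rows. Of the 40 lesional values, from 4 probes in 10 dogs, 7 were above the dog's own limit. Of the 20 healthy values 11 were above it. With a limit of the mean plus 3 SD these counts were 3 and 8. By contrast, between 126 and 151 of the 160 panel probes passed the limit in the DLE dogs and between 103 and 148 in the healthy dogs. Panel probes that did not pass it in any of the 10 lesional dogs numbered 6 of 160 (3.75%), and IFNA5 and IFNK were among them. Of these 6 probes, IFNA5 passed the limit in 3 healthy dogs and each of the others in at most 1.

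**Figure D1:**
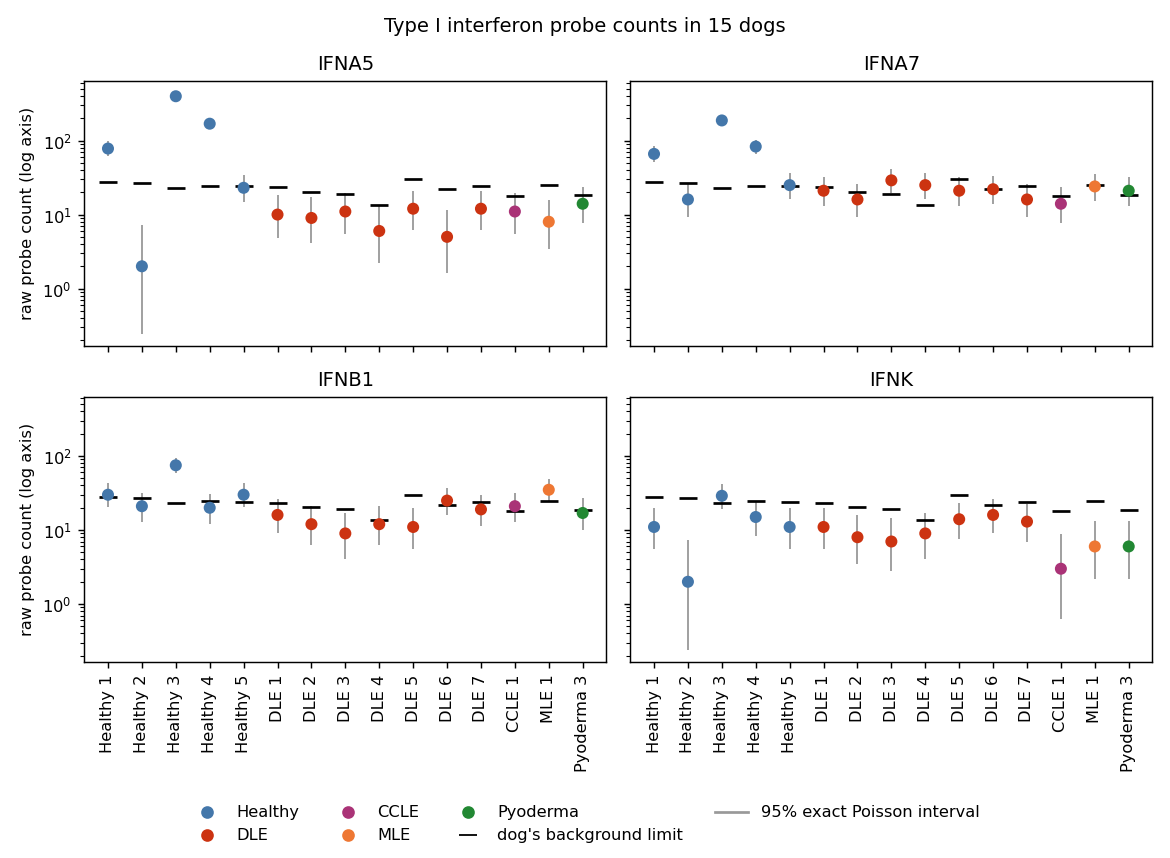
Raw count of each type I interferon probe (log axis) in each of 15 dogs, coloured by group, with the exact 95% Poisson interval as a grey line and the dog's own background limit as a black dash. For IFNA5, healthy dogs 1, 3 and 4 stand at 78, 397 and 169 counts, and the 10 lesional dogs lie between 5 and 14, below their limits.

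Several facts about the libraries bear on these low counts. Panel sums ranged from 209889 to 675018 counts in the healthy dogs and from 495839 to 587169 in the DLE dogs, and were lower in the healthy group (log2 difference of DLE over healthy 0.60, exact permutation p = 0.0152, two-sided, n = 7 and 5). The spike-in control rows that were high differed between the dogs. One set of rows was high in 9 dogs, those with DLE, MLE or pyoderma. Another was high in 6 dogs, the healthy ones and the one with CCLE. The set therefore cannot be told apart from the comparison of DLE with healthy skin. The rows behind the limit differ with the set, so the same holds for comparisons of DLE with healthy dogs over the limit. DLE dog 3 stood apart in scaling, with a TMM factor of 0.445 against 0.975 to 1.07 in the other DLE dogs. The keratinocyte markers KRT1, KRT5 and KRT14 were above the limit in 15 of 15 dogs. Of 14 markers of skin and immune cells with a probe, 6 were called higher in DLE and 3 lower (edgeR, where 37.7% and 24.0% of 154 probes were called). The higher ones were KRT14, CD86, CD40LG, FOXP3, MS4A1 and KLRD1, by log2 1.32 to 3.40. The lower ones were CD163 by -1.41, and the mast cell genes KIT and MS4A2 by -0.70 and -0.68. With the control-row set as a block, for lupus against the other dogs, 4 were called higher and 2 lower. In that fit 21.7% and 3.82% of 157 probes were called, and KRT14 (-0.03), CD86 (0.86) and KIT (-0.05) were not. KRT1, KRT5 and the melanocyte genes DCT, TYR and MC1R were called in neither fit. The markers called in DLE against healthy differed alongside the interferon probes, and their part in the interferon values was not tested. None of the 8 listed plasmacytoid dendritic cell markers had a named probe. Each tissue was measured in bulk, so fewer cells of a type and less RNA per cell cannot be told apart.

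IFNA5, an interferon alpha gene, was the member with the widest range. In the DLE dogs 1 to 7 the raw counts were 10, 9, 11, 6, 12, 5 and 12, and in the healthy dogs 1 to 5 they were 78, 2, 397, 169 and 23. All 7 DLE dogs lay below their limits, whereas 3 of 5 healthy dogs lay at 2.80, 17.4 and 6.90 times their own limit. Healthy dog 5 lay just under its limit, and healthy dog 2 had the lowest IFNA5 count of all 15 dogs, so the groups overlapped. The Poisson intervals of healthy dogs 1, 3 and 4 were 61.7 to 97.3, 359 to 438 and 144 to 196 counts, far above those limits. Ranked from the lowest of the 160 panel probes in the same dog, IFNA5 stood at place 90, 102 and 100 in these 3 healthy dogs, at place 1 and 45 in healthy dogs 2 and 5, and between place 3 and 23 in the lesional dogs.

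Scaled by TMM over the panel, IFNA5 averaged 9.82 ± 5.52 normalised counts in DLE dogs (SD, n = 7) against 119 ± 104 in healthy dogs (SD, n = 5). It fell by 3.65 on the log2 scale (SE 0.74, edgeR quasi-likelihood adjusted p = 0.000878). Across the panel, 37 of the 154 probes tested (24.0%) were called lower in DLE, so a fall by itself was common here. The DLE level is only an upper bound. With every count raised to its dog's limit the fall was 2.54 (edgeR adjusted p = 0.000611). All 7 DLE values are then the limits themselves, so that p-value does not measure the spread of IFNA5 in DLE dogs. Set against each dog's limit without any scaling to library size, the mean log2 difference was -2.18, which did not pass the test (exact permutation p = 0.0947, adjusted p = 0.168 over 158 probes, of which 9.49% were called lower). That test turned on healthy dog 2, without which the difference was -3.34 (exact permutation adjusted p = 0.0160). Leaving out healthy dog 3 in its place gave -1.38 (exact permutation adjusted p = 0.349).

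IFNA7, a second interferon alpha gene, followed the same healthy dogs. Its counts were 21, 16, 29, 25, 21, 22 and 16 in DLE dogs 1 to 7 and 66, 16, 187, 83 and 25 in healthy dogs 1 to 5. Healthy dogs 1, 3 and 4 were again the highest, at 2.37, 8.18 and 3.39 times their limits, while healthy dog 2 equalled the lowest DLE dogs. In 3 of 7 DLE dogs IFNA7 was above the limit, at 1.51, 1.84 and 1.00 times it. Normalised counts averaged 23.2 ± 14.6 in DLE (SD, n = 7) and 73.6 ± 43.0 in healthy dogs (SD, n = 5), a fall of 1.70 on the log2 scale (SE 0.46, edgeR adjusted p = 0.00524). Under reference gene scaling it was -1.06 and not called (edgeR adjusted p = 0.0519). DLE dog 3, whose 29 raw counts became 55.8 normalised counts, widened the DLE spread, and without it the change was -2.12. Relative to the limits the difference was -1.08 (exact permutation p = 0.0947, adjusted p = 0.168), and without healthy dog 2 it was -1.54 (exact permutation adjusted p = 0.0325). Without healthy dog 3 it was -0.59 (exact permutation adjusted p = 0.370).

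IFNA5 and IFNA7 were not in a fixed proportion. The count of IFNA5 was 1.18, 2.12 and 2.04 times that of IFNA7 in healthy dogs 1, 3 and 4, and 0.125 and 0.920 times in healthy dogs 2 and 5. In the 10 lesional dogs it was between 0.227 and 0.786 times, so the healthy dogs lay on both sides of that range. Both probes were near background in the lesional dogs and in healthy dogs 2 and 5. Healthy dogs 1 and 3 had the smallest and the largest panel sums of the healthy group, and both alpha probes were above the limit in each. Healthy dog 3 also had the highest healthy value over the limit for all 4 members. The part of the panel sum in these values was not tested.

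**Figure D2:**
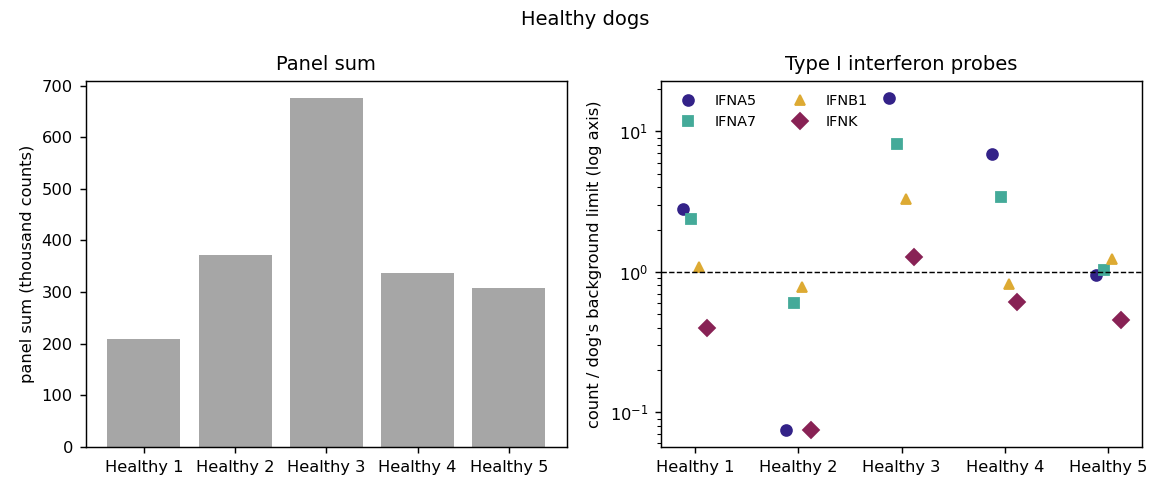
Left, counts summed over the 160 panel probes in each healthy dog. Right, each type I interferon probe as a multiple of the dog's own background limit (log axis, dashed line at the limit), where IFNA5 and IFNA7 are clearly above the limit in healthy dogs 1, 3 and 4 and below it in healthy dog 2.

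IFNB1, interferon beta, which in human and mouse cells is typically induced early after sensing of foreign or displaced nucleic acid, differed less. Counts were 16, 12, 9, 12, 11, 25 and 19 in DLE dogs 1 to 7 and 30, 21, 75, 20 and 30 in healthy dogs 1 to 5. Only DLE dog 6 was above its limit among the DLE dogs, at 1.14 times, against 3 of 5 healthy dogs, of which dog 3 was at 3.28 times and dogs 1 and 5 were at 1.08 and 1.24 times. The raw counts of the groups overlapped, whereas for 5.70% of the 158 probes all DLE dogs lay below all healthy dogs in raw counts. After TMM scaling they did not overlap, with DLE dogs between 9.27 and 24.4 and healthy dogs between 24.5 and 46.1 normalised counts. This was so, with DLE lower, for 11.4% of the 158 probes. The lowest healthy dogs, 4 and 2, stood at 24.5 and 27.1, below their scaled limits of 30.0 and 34.7. The highest DLE dog, 6, stood at 24.4, above its scaled limit of 21.4. The change was -1.32 on the log2 scale (SE 0.29, edgeR adjusted p = 0.00129). Under reference gene scaling it was -0.61 (edgeR adjusted p = 0.0641) and under spike-in scaling -1.16 (edgeR adjusted p = 0.0572), and neither passed. Relative to the limits it was -0.89 (exact permutation p = 0.0404, adjusted p = 0.0818), and of the 12 repeats with 1 dog left out only that without DLE dog 6 gave a call (-1.02, exact permutation adjusted p = 0.0408). Without healthy dog 3 the difference was -0.54 (exact permutation adjusted p = 0.204).

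IFNK, interferon kappa, the keratinocyte interferon, was at background in both groups. Counts were 11, 8, 7, 9, 14, 16 and 13 in DLE dogs 1 to 7 and 11, 2, 29, 15 and 11 in healthy dogs 1 to 5. Healthy dog 3 alone passed its limit, at 1.27 times, and the groups overlapped. The change was -0.37 on the log2 scale (SE 0.36, edgeR adjusted p = 0.376), and limma's 95% interval ran from -1.02 to 0.72. Of the 12 values 11 lay at or below the limit. Relative to the limits the difference was in the other direction, at 0.33 (exact permutation p = 0.657, adjusted p = 0.706). The direction of the edgeR change also turned under reference gene scaling (0.34). A lower level was called under panel median scaling (-1.05, edgeR adjusted p = 0.0316) and without healthy dog 2 (-0.63, edgeR adjusted p = 0.0353).

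All 4 members passed the filter on low counts. Of them 3 were called lower in DLE, where 24.0% of the 154 probes were called lower. The members are not independent of each other, since healthy dog 3 was above the limit for all 4. Their median log2 change was -1.51 against 0.42 over all 154 probes. Since scaling moved the median of all probes from -0.25 (panel median) to 1.07 (reference genes), the changes are also given relative to it. Relative to the median of all probes, IFNA5 changed by -4.07, IFNA7 by -2.13, IFNB1 by -1.74 and IFNK by -0.79 under TMM. Another scaling moves the members and the median alike, so these relative values change little with it. With counts raised to the limit they were -2.60, -1.65, -0.89 and -0.58, and with the control-row set as a block -2.09, -1.20, -0.52 and -0.65. The number of probes called lower moved with the scaling, from 37 (58 higher) under TMM to 17 (82 higher) under reference gene, 17 (56 higher) under spike-in and 64 (44 higher) under panel median scaling. The mean of the 8 low control rows was 12.01 ± 2.94 normalised counts in DLE dogs and 16.0 ± 5.93 in healthy dogs, a log2 difference of -0.33 that did not pass the test (exact permutation p = 0.294, n = 7 and 5), against -0.13 in raw counts (exact permutation p = 0.403).

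**Figure D3:**
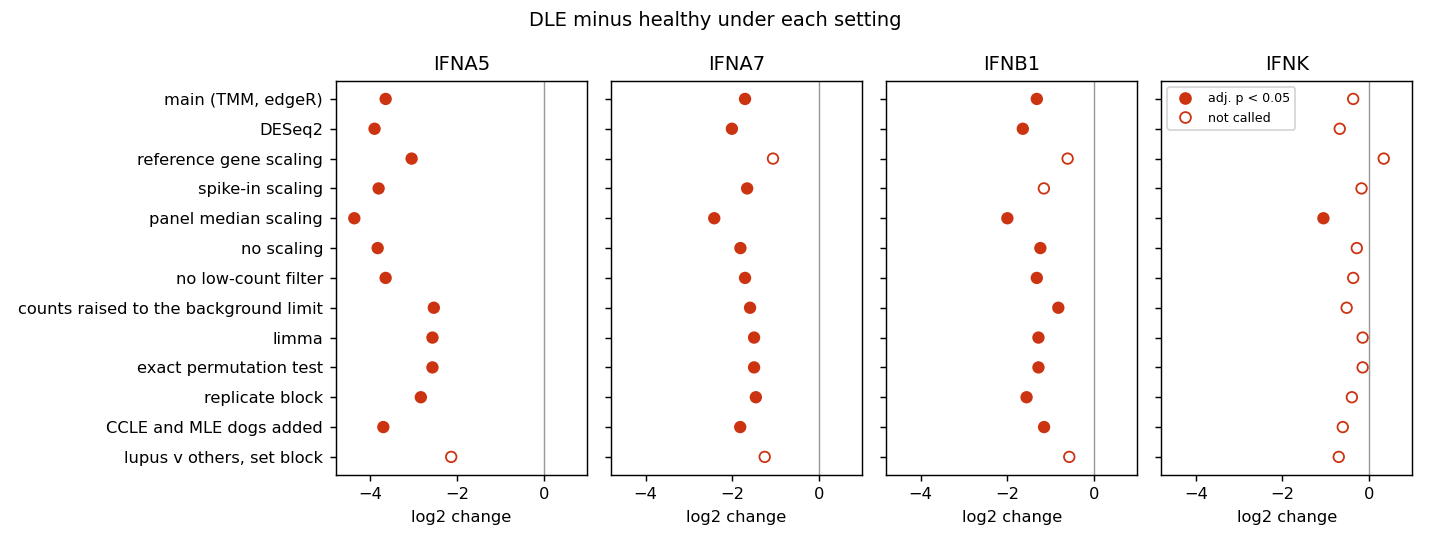
Log2 change of DLE over healthy for each member under the main fit and each alternative, with filled points for an adjusted p under 0.05 and open points for no call. In the last line 9 lupus dogs are set against 6 other dogs with the control-row set as a block, and none of the 4 members is called there.

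With the control-row set as a block, which compares the 9 lupus dogs with the healthy and pyoderma dogs, no member was called. The log2 changes were -2.13 for IFNA5, -1.25 for IFNA7, -0.57 for IFNB1 and -0.70 for IFNK (edgeR adjusted p = 0.233, 0.302, 0.375 and 0.571), where 3.82% of 157 probes were called lower. In that fit only the CCLE dog and the pyoderma dog separate disease from set.

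The 3 single dogs each had their own position, given without a test. In the CCLE dog, the only lupus dog that shares the control-row set of the healthy dogs, counts were 11 for IFNA5, 14 for IFNA7, 21 for IFNB1 and 3 for IFNK. Its IFNA5 count lay within both groups' ranges, its IFNA7 count was below every healthy and every DLE dog, and its IFNB1 count was 1.17 times its limit. In the MLE dog, counts were 8, 24, 35 and 6 in the same order. Its IFNB1 count was above all DLE dogs and was 1.40 times its limit of 25.04, with a Poisson interval of 24.4 to 48.7 that includes the limit. In the pyoderma dog, counts were 14, 21, 17 and 6. This was the highest lesional IFNA5 count, at 0.754 times the limit, and its IFNA7 count was 1.13 times the limit.

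Other genes of the interferon pathway were read from a list of 57 further genes, of which 5 had a named probe. No receptor, sensor or signalling gene of the list was among them, so IFNAR1, IFNAR2, TLR7, IRF7 and MX1 are not analysed here. IFNG, the type II interferon of T and NK cells, counted 41 to 280 (median 64) in DLE dogs against 11 to 25 (median 18) in healthy dogs, and was above the limit in 10 of 10 lesional dogs and 1 of 5 healthy dogs. CXCL10, a chemokine that both interferon types induce, counted 229 to 23744 (median 6482) in DLE dogs against 20 to 87 (median 54) in healthy dogs. For both genes the groups did not overlap in raw counts, which was so, with DLE higher, for 15.2% of the 158 probes. In the same lesional dogs the IFNA5 and IFNK counts were below the limit, whereas IFNA7 passed it in 4 of 10 and IFNB1 in 3 of 10.

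Of these 5 genes 4 rose in DLE and none fell, where 37.7% of the 154 probes were called higher. IFNG, CXCL10, the T cell chemokine CCL5 and B2M, the light chain of MHC class I, rose, with log2 changes of 2.31, 6.98, 5.67 and 1.40 (edgeR adjusted p = 0.000566, 3.18e-05, 7.42e-06 and 0.00117). CCL8, a monocyte chemokine, had a log2 change of 1.03 and was not called (edgeR adjusted p = 0.209). Lymphocyte markers rose with them: all 4 with a probe, the T cell genes CD40LG (1.89) and FOXP3 (2.31), the NK cell gene KLRD1 (1.90) and the B cell gene MS4A1 (3.40), were called higher, also with the control-row set as a block. Their summed level was 236 to 718 normalised counts in the DLE dogs and 77.9 to 103 in the healthy dogs, and its part in the rise of the pathway genes was not tested. With the control-row set as a block IFNG was not called (0.97, edgeR adjusted p = 0.160), whereas CXCL10 (3.75), CCL5 (3.52) and B2M (1.23) were. CXCL10 and CCL5 also respond to interferon gamma, and B2M to both types, so none of them is specific for type I interferon.

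**Figure D4:**
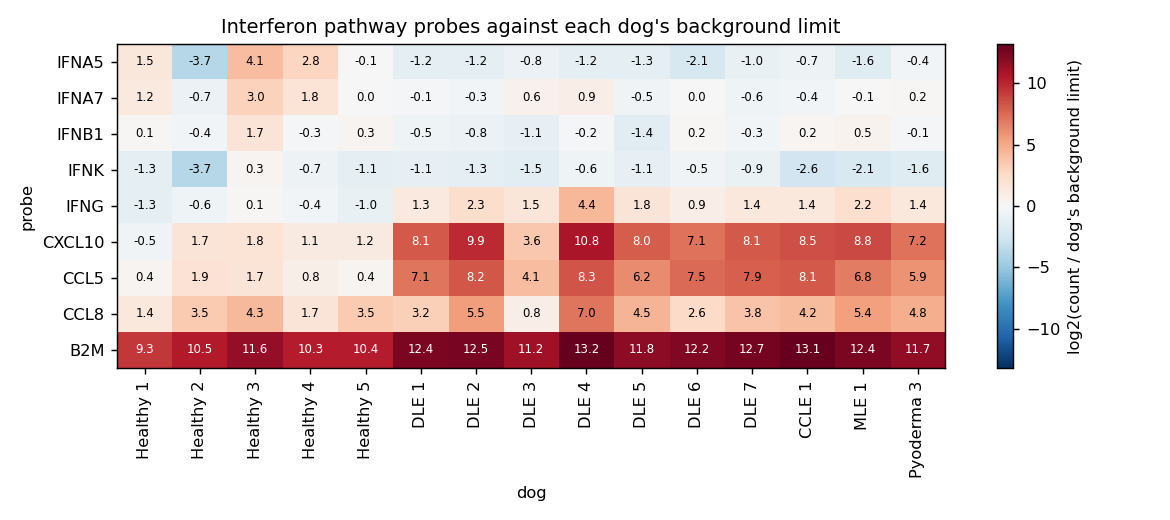
Log2 of each probe's count over the dog's own background limit (number and colour, 0 at the limit) for the 4 type I interferons and the 5 other pathway genes with a probe, in 15 dogs. In the 10 lesional dogs IFNA5 and IFNK stay below 0, IFNA7 is above 0 in 4 dogs and IFNB1 in 3, and CXCL10 lies between 3.6 and 10.8.

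The probes whose pattern over all 15 dogs was most like each member were taken from log2 normalised counts by Pearson's r, as a description. These 15 points share their scaling and mix groups that differ, and in most of them the member is near background. IFNA5 was most like IFNA7 (r = 0.90, Spearman's rho = 0.61), then CCL27, a keratinocyte chemokine (r = 0.76), and EDA, the ectodysplasin gene of skin appendage development (r = 0.68). IFNA7 had the same neighbours, with CCL27 at r = 0.83 and EDA at r = 0.80. IFNB1 was most like CXCL12, a stromal chemokine (r = 0.87), EDA (r = 0.86) and PPARA, a lipid-sensing nuclear receptor (r = 0.85). IFNK was most like IFNA5 (r = 0.67), IFNA7 (r = 0.66) and TYR, the melanin synthesis enzyme tyrosinase (r = 0.59).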

How the data were processed

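RNA was extracted from archival fixed biopsies with a Qiagen kit and hybridised to NanoString probes, per the labels. The authors deposited whole counts per probe, which were used as raw counts. For the counting software and for any background subtraction or scaling, nothing is stated in the labels or the file. The table holds 160 panel probes and 14 ERCC control rows, and 72 probes matched a symbol in the RefSeq table of UU_Cfam_GSD_1.0, used for names and gene order. No coordinates or sequences are given.

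DLE and healthy dogs were compared with edgeR 4.0.16 (R 4.3.3): TMM over the panel, filterByExpr (154 of 158 probes kept, reference genes HPRT1 and RPL13A left out), glmQLFit and glmQLFTest, two-sided, Benjamini-Hochberg adjusted p under 0.05. The edgeR and permutation steps were also run on simulated counts with the same dispersion for all probes and no background floor. That setting is unlike that of the members and is not used as support here. Log2 counts over each dog's background limit were compared over 792 splits by an exact permutation test (smallest p 0.00126). Alternatives used DESeq2 1.42.0, limma 3.58.1 on log2(normalised count + 1), other scalings and limits. Exact Poisson intervals (95%) cover counting error only. Each labelled sample was counted as 1 replicate. Within the DLE group and within the healthy group no column repeats another within sampling noise (chi-square over its degrees of freedom at least 162). This does not show that they come from separate dogs. Columns of the other groups and pairs across groups were not compared. The labels do not state that the 5 healthy margins are from separate dogs, and p-values then measure only the spread between samples.

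The members and lists were chosen with earlier results of these data known. Named genes were the 4 members, the 3 named probes most like each, and every pathway-list gene with a probe.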

Additional observations from a re-analysis of the deposited data

Results flagged for a closer look

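A single dog stood far from the rest of its group in 4 of 16 checks of the 4 members (raw and normalised counts, DLE and healthy groups), where chance gives about 1 in 20. In DLE dog 3, whose TMM factor was the lowest, IFNA5 reached 21.2 normalised counts (next dog 10.6) and IFNA7 reached 55.8 (next dog 21.4). Healthy dog 3, whose panel sum was the largest of the healthy group, had an IFNB1 raw count of 75 (next dog 30). After TMM scaling its IFNB1 level was 44.6, below healthy dog 1 at 46.1. Healthy dog 2 had an IFNK level of 2.58 normalised counts (next dog 14.6).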

How the results depend on the processing

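The calls of IFNA5, IFNA7 and IFNB1 in the edgeR comparison held in 11, 10 and 9 of 12 alternatives and with any 1 dog left out. In the alternative with counts raised to the limit, all 7 IFNA5 values of the DLE dogs are limits. With the control-row set as a block the changes were -2.13, -1.25 and -0.57, not called, and 40 probes were called in place of 95. Reference gene scaling ended the call of IFNA7 (-1.06) and IFNB1 (-0.61) and turned IFNK to 0.34, spike-in scaling ended that of IFNB1 (-1.16), and panel median scaling called IFNK (-1.05). The cause was not tested. With 1 dog left out, edgeR gave 91 to 98 calls and changes from -3.97 to -3.23 for IFNA5, -2.12 to -1.50 for IFNA7, -1.49 to -1.23 for IFNB1 and -0.63 to -0.25 for IFNK. The differences over the limit then ran from -3.34 to -1.38, -1.54 to -0.59, -1.06 to -0.54 and -0.28 to 0.74. The labels state no pairing of DLE and healthy dogs that share a replicate number. Correlations of deviations between such dogs ran from -0.14 to 0.17. They were not set against dogs with unlike numbers, so they cannot exclude a pairing. The fit with the replicate block gave 88 calls and changes of -2.83, -1.45, -1.56 and -0.40, with no call of a member changed. After subtraction of the limit the 4 members did not pass the filter on low counts and gave no value. A limit from control rows low in all dogs was not run, since there were only 2 such rows. Most counts of the members lay near the limit and carry wide counting error.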
